A study of Mus musculus with 2 samples.

Results

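The 7 genes described here encode the antibody chains of plasma cells, the proteins that assemble them, and the receptor that carries polymeric antibody across the gut epithelium. They are Igha, Ighg2b, Ighm, Iglc2, Jchain, Mzb1 and Pigr, taken by gene symbol from the 27874 symbols of the expression table, with their transcript rows summed. They were chosen with their levels in these libraries already known, so every difference between the libraries is given as a description. RNA came from tissue labelled colon lamina propria, the layer of connective tissue below the epithelium, of C57BL/6J mice of 2 genotypes. Control mice gave 1 library. The other library came from K14/hyal1 mice, named for the keratin 14 promoter, whose known activity is in basal keratinocytes, and for the hyaluronan-cleaving enzyme Hyal1. The sources used here do not give the age, the sex or the number of mice behind each library. With 1 library per genotype there was no replicate check and no test, and each difference below is one between 2 libraries, not between genotypes.

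Plasma cells are the antibody-secreting end stage of B cells, and the gut wall holds most of those that make IgA. IgA units, like IgM units, are joined by the J chain into polymers, which bind the polymeric immunoglobulin receptor on the basal side of epithelial cells and are carried to the lumen. IgG lacks the tail that binds the J chain and is not carried by this receptor. Pigr is therefore an epithelial gene, whereas the other 6 belong to the B cell lineage.

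The tail that sets IgA and IgM apart is visible in the coding sequence, and is shown because it separates the chains that can use the Jchain and Pigr products from the one that cannot. The last 60 coding bases of the shorter GENCODE M21 transcript of each heavy chain gene are given 5′ to 3′ on the minus strand of mm10, at chr12:113258771-113258830 for Igha, chr12:113420870-113420929 for Ighm and chr12:113306392-113306451 for Ighg2b. The capitals mark the next-to-last codon where it is a cysteine codon, the residue known to form the bond with the J chain.
Igha: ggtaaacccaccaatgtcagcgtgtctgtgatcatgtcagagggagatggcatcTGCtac
Ighm: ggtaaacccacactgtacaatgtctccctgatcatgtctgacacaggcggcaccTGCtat
Ighg2b: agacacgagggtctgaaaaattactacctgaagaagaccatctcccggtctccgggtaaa
Igha and Ighm carry this codon and Ighg2b does not.

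Levels are read as CPM, reads scaled to a library total of 1000000, and intervals in brackets are exact 95% intervals from estimated reads. They cover counting error only, because 1 library per genotype shows no spread between mice. The reads carry no molecular identifiers and are not independent molecules, so the intervals may be too narrow even for counting error. The Control library has 25446311 estimated reads in the table and K14/hyal1 has 13812940. The totals implied by the scaling are larger, 6.11e+07 reads for Control and 2.90e+07 for K14/hyal1. The table values therefore sum to less than 1000000, with 416434 for Control and 475975 for the other library. Ratios as deposited were not corrected for these unequal sums. The floor used here, 3 reads, is worth 0.0491 CPM for Control and 0.103 for K14/hyal1. Log2 ratios are log2((K14/hyal1 + 1)/(Control + 1)) of CPM values, a scale that shrinks the differences of low genes, and plain ratios are of CPM. Their median over the 13563 genes past an expression filter (a mean of at least 2.31 CPM) was 0.21, so a gene at that value differed no more than the typical gene. Hyal1 had 3.36 CPM in Control against 3.77 CPM in K14/hyal1, for a ratio of 1.12 (0.879 to 1.42). The libraries also differed outside the B cell lineage. All 9 macrophage markers were higher in K14/hyal1, with a summed level of 71.1 CPM in Control against 241 CPM in K14/hyal1, and 5 of 6 fibroblast markers were higher, with sums of 365 and 875 CPM. All 7 sublingual-type gland markers were lower, with sums of 1489 and 0.172 CPM, and Dcpp1, Dcpp3 and Ltf had 0 reads in K14/hyal1. The 9 epithelial markers summed to 3514 and 3752 CPM, with 5 higher and 4 lower as deposited and 1 higher and 8 lower after scaling to the median gene, so both libraries held much epithelial RNA. The part of these differences in the antibody gene values was not tested.

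All 7 genes had a higher level in K14/hyal1 than in Control, by very different amounts, and kept that direction under each of the 3 other scalings tried (median gene, TMM, and library totals that leave out the 20 most abundant genes). For Ighm the log2 ratio on the median gene scale was only 0.15, and no counting interval was worked out on that scale. Ighm alone changed direction, to a log2 ratio of -0.15, when its highest transcript row replaced the sum. The log2 ratio was at least 1 for 4 of 7, Igha, Ighg2b, Iglc2 and Jchain, and at most -1 for 0 of 7. A gene at or past either bound is called 2-fold here, which applies to levels with 1 CPM added. The same bounds were reached upwards by 3.75% and downwards by 1.54% of all genes past the filter, and nothing is read from the members' count against these shares, because the members were chosen on this contrast. Of all genes past either bound, 70.9% were higher as deposited but 46.5% after scaling to the median gene. The filter was passed by 6 of 7, and Mzb1 fell below it. In a bulk sample, more cells of a type and more RNA per cell cannot be told apart.

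**Figure D1:**
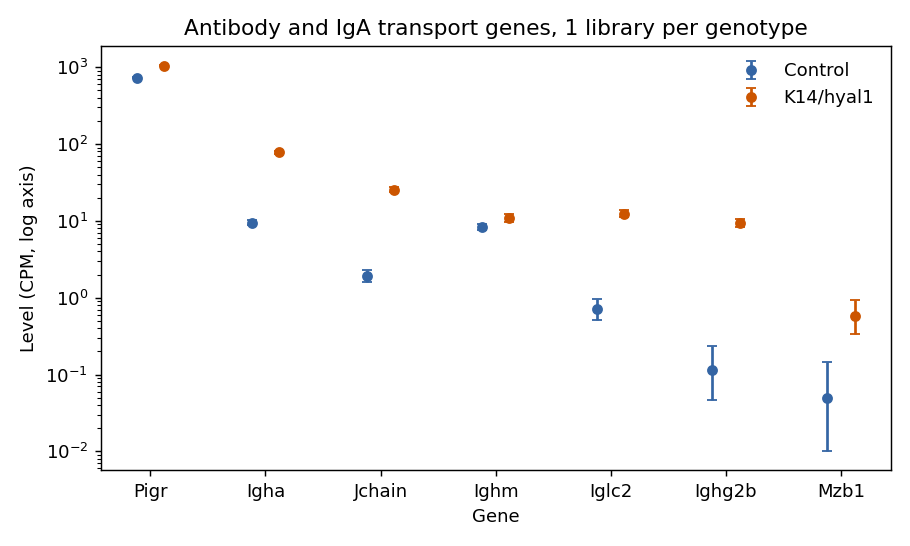
Level in CPM on a log axis of each of the 7 genes in the Control library (blue) and the K14/hyal1 library (orange), with exact 95% counting intervals as bars. Pigr is at 729 and 1049 CPM, far above the antibody genes, and Ighm is the antibody gene whose levels lie closest together, at 8.28 and 11.0 CPM.

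Igha encodes the heavy chain constant region of IgA (ENSMUSG00000095079.6, chromosome 12 at 113254830-113260236, minus strand, mm10). Its level was 9.48 CPM in Control (8.72 to 10.3, 579 estimated reads) against 78.1 CPM in K14/hyal1 (74.9 to 81.4, 2267 estimated reads). The ratio was 8.24 (7.52 to 9.05), and the log2 ratio of 2.92 ranked 16 among the 13563 genes past the filter. The table gives Igha as 2 transcript rows without transcript names. The first held 99.0% of the Control level and 97.8% of the K14/hyal1 level, and was 8.14-fold higher in K14/hyal1. The second went from 0.0955 to 1.74 CPM, which is 5.83 and 50.5 estimated reads, so both rows were higher in the same library.

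Jchain encodes the joining chain of polymeric IgA and IgM (ENSMUSG00000067149.6, chromosome 5 at 88519809-88527891, minus strand). Its level was 1.93 CPM in Control (1.60 to 2.31, 118 estimated reads) against 25.4 CPM in K14/hyal1 (23.6 to 27.3, 738 estimated reads). The ratio of 13.2 (10.8 to 16.1) had a lower bound above the upper bound of the Igha ratio. Within each library, Jchain made up 16.9% of the reads of Jchain and Igha together in Control (14.2 to 19.9) and 24.6% in K14/hyal1 (23.0 to 26.1). There was thus more Jchain per Igha in K14/hyal1, by 1.60-fold, and the intervals of the shares did not overlap. The first of its 2 transcript rows was at 1.89 and 23.6 CPM and the second at 0.0404 and 1.87 CPM. The second row held 2.09% of the gene in Control, where it is worth 2.47 estimated reads, and 7.36% in K14/hyal1.

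Mzb1 encodes an endoplasmic reticulum protein of marginal zone B cells and plasma cells that helps antibody assembly and secretion (ENSMUSG00000024353.5, chromosome 18 at 35647267-35649367, minus strand). It overlaps another annotated gene, SPATA24, on the same strand. It was the least abundant of the 7, with 3 estimated reads in Control, 0.0491 CPM (0.0101 to 0.143), and 17 in K14/hyal1, 0.586 CPM (0.341 to 0.938). The ratio was 11.9 with a wide interval, 3.45 to 63.5, and the log2 ratio 0.60, which was 2.20 with a pseudocount of 0.1 and 0.075 with 10. Per Jchain read its level was 0.0254 in Control and 0.0230 in K14/hyal1, so the Mzb1 and Jchain ratios lay close together at this low depth.

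Ighm encodes the heavy chain of IgM, which naive B cells display on their surface and plasma cells secrete (ENSMUSG00000076617.9, chromosome 12 at 113418558-113422730, minus strand). It was at 8.28 CPM in Control (7.57 to 9.03, 506 estimated reads) against 11.0 CPM in K14/hyal1 (9.79 to 12.2, 318 estimated reads), for a ratio of 1.32 (1.15 to 1.53). The log2 ratio of 0.37 was 0.15 after scaling to the median gene. Its 2 transcript rows differed in direction as deposited, unlike those of Igha and Jchain. The first listed row was at 2.61 CPM in Control against 5.95 CPM in K14/hyal1, or 2.29-fold higher. The second was at 5.68 and 5.003 CPM, from 346.8 and 145.2 estimated reads, for a ratio of 0.882. No interval was worked out for single rows, so a difference beyond counting error is not shown for the second row. The first row thus held 31.5% of the Ighm level in Control and 54.3% in K14/hyal1. GENCODE lists a shorter and a longer Ighm transcript, but the rows carry no transcript name, so which row is the secreted and which the membrane form is not known here.

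Ighg2b encodes the heavy chain of IgG2b (ENSMUSG00000076613.4, chromosome 12 at 113302965-113307933, minus strand). It had 7 estimated reads in Control, 0.115 CPM (0.0461 to 0.236), and 271 in K14/hyal1, 9.34 CPM (8.26 to 10.5). This was the widest gap of the 7, with a ratio of 81.5 (39.0 to 205) and a log2 ratio of 3.21 that ranked 2 among the genes past the filter. Because its Control level is so low, the log2 ratio depends on the pseudocount. With a pseudocount of 10 in place of 1 it was 0.94, under the bound of 1. It was then below the values of Igha, Jchain and Iglc2, which were 2.18, 1.57 and 1.07. The first of its 2 rows was at 0.0491 and 9.17 CPM and carried 98.2% of the K14/hyal1 level, and the second was at 0.0655 and 0.166 CPM, under 5 reads in each library. The other IgG genes stayed low in both libraries. Ighg3 had 1 estimated read in Control and 13 in K14/hyal1, Ighg1 3 and 8, and Ighg2c 5 and 4, with levels of at most 0.448 CPM. In CPM, which allows for the unequal depth, their ratios were 27.4 (4.11 to 1163), 5.61 (1.35 to 32.9) and 1.68 (0.334 to 7.83). The coding sequence of Ighg2b is 85.8% identical to that of Ighg2c over 1004 aligned bases, with a longest identical run of 78 bases, and 76.9% and 76.6% identical to those of Ighg1 and Ighg3. Reads may therefore have been split among the IgG genes.

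Iglc2 encodes the constant region of a lambda light chain (ENSMUSG00000076937.3, chromosome 16 at 19198396-19200351, minus strand) and overlaps the joining segment Iglj2 on the same strand. Its level was 0.702 CPM in Control (0.509 to 0.948, 43 estimated reads) against 12.4 CPM in K14/hyal1 (11.2 to 13.8, 360 estimated reads). The ratio was 17.7 (12.8 to 24.8) and the log2 ratio 2.98. The authors' deposited table gives 0.769 CPM in Control for Iglc2, the value it also gives for Iglc3, and a ratio of 16.1. The neighbouring constant gene Iglc3 had 0.769 CPM in Control against 5.89 CPM in K14/hyal1, or 7.66-fold higher (5.52 to 10.8), and Iglc1 had 1.19 and 3.17 CPM, 2.65-fold higher (1.93 to 3.66). The 3 lambda genes thus differed in ratio, and Iglc1 and Iglc3 overlap the gene 2010309G21Rik on the opposite strand, whose reads cannot be told apart if strand was not used. The Iglc2 and Iglc3 values also depend on how reads common to both were divided.

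The likeness of Iglc2 and Iglc3 is shown because the separate Iglc2 value rests on few bases. The lines give the same 90 coding bases of the 3 genes, 5′ to 3′ on the minus strand of mm10, at chr16:19198749-19198838 for Iglc2, chr16:19065578-19065667 for Iglc3 and chr16:19061968-19062057 for Iglc1. Capitals mark the 25 positions at which the 3 sequences are not all the same.
Iglc2: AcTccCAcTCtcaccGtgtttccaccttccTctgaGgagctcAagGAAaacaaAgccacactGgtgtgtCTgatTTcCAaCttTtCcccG
Iglc3: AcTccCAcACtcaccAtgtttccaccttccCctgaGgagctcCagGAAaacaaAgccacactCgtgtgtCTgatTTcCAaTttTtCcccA
Iglc1: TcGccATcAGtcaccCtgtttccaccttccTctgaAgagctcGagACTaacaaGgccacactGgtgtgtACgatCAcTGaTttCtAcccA
In this window, chosen for the most differences between Iglc2 and Iglc3, Iglc2 differs from Iglc3 at 7 bases and from Iglc1 at 23. Over the whole constant coding sequence Iglc2 and Iglc3 are 96.5% identical, with 11 differing bases among 314 and an identical run of 79 bases. Iglc2 and Iglc1 are 74.8% identical, so the division of reads concerns Iglc3 more than Iglc1.

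Pigr encodes the polymeric immunoglobulin receptor of the epithelium (ENSMUSG00000026417.13, chromosome 1 at 130826684-130852249, plus strand). It was the most abundant of the 7 in both libraries and ranked 31 in mean level among all symbols. Its level was 729 CPM in Control (723 to 736, 44568 estimated reads) against 1049 CPM in K14/hyal1 (1037 to 1061, 30435 estimated reads), for a ratio of 1.44 (1.42 to 1.46). The log2 ratio of 0.52 ranked 2952 among the genes past the filter and was 0.29 after scaling to the median gene. Of its 3 transcript rows the first held 99.8% of the level in each library, the second was at 1.51 and 1.86 CPM, and the third was below 1 read in both. Set against epithelial genes, Pigr per Epcam, an adhesion gene of all epithelial cells, was 1.96 in Control and 2.58 in K14/hyal1. Per Krt8, an epithelial keratin, it was 0.766 and 0.987, and per Cdh1, the E-cadherin gene, 1.62 and 2.50. Over all 9 epithelial markers Pigr per marker was higher in K14/hyal1 for 8, with a median ratio of 1.31 and a highest of 2.45 for Krt20, a keratin of differentiated cells. Per Krt18, another keratin, it was nearly level, 9.75 and 9.68, for a ratio of 0.993. Per Igha it was lower, 77.0 in Control and 13.4 in K14/hyal1.

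The 250 bases before the RefSeq start (GRCm38.p6) of the 2 genes that meet at the transport step, Jchain in plasma cells and Pigr in epithelium, are shown because their levels differed by such unequal amounts. They lie at chr5:88527898-88528147 on the minus strand for Jchain and at chr1:130826434-130826683 on the plus strand for Pigr. The motifs searched on both strands were the octamer ATTTGCAT of immunoglobulin promoters, the E-box CACGTG and the interferon-type element GAAANNGAA, which do not overlap one another in these windows, and capitals mark a match.
Jchain: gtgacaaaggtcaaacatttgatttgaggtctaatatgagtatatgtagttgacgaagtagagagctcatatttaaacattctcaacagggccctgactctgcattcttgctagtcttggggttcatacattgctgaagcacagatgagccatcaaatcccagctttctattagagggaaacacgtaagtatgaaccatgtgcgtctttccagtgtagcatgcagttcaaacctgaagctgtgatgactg
Pigr: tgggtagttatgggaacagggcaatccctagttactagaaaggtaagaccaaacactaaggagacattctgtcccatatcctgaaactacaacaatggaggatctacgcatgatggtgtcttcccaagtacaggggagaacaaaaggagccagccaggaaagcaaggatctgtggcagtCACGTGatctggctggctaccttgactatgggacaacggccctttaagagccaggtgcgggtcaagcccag
Pigr holds 1 E-box, beginning 71 bases before the start, and 6.02% of 32851 promoter windows of this length hold one. The octamer is in 1.60% and the interferon-type element in 7.13% of these windows, and neither is in either sequence shown. A match is a description of the letters and not of a bound site.

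Per length, the order of the genes differed between the libraries. Per kilobase of annotated exon the Control levels were 181 CPM for Pigr, 4.39 for Ighm, 3.55 for Igha, 1.15 for Iglc2, 0.767 for Jchain, 0.0428 for Ighg2b and 0.0404 for Mzb1. In K14/hyal1 they were 261 CPM per kilobase for Pigr, 29.3 for Igha, 20.3 for Iglc2, 10.1 for Jchain, 5.81 for Ighm, 3.49 for Ighg2b and 0.482 for Mzb1. Per kilobase on summed rows, Ighm was thus the leading antibody gene of the 6 in Control and came after Igha, Iglc2 and Jchain in K14/hyal1. Without division by length, Igha led in Control, with 9.48 CPM against 8.28 CPM for Ighm. The order of these 2 genes there therefore depends on the lengths used, 2668 bases for Igha and 1886 for Ighm, which cover all annotated exons. Ighg2b and Mzb1 rested on 7 and 3 reads in Control, and their order there is within counting error.

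**Figure D2:**
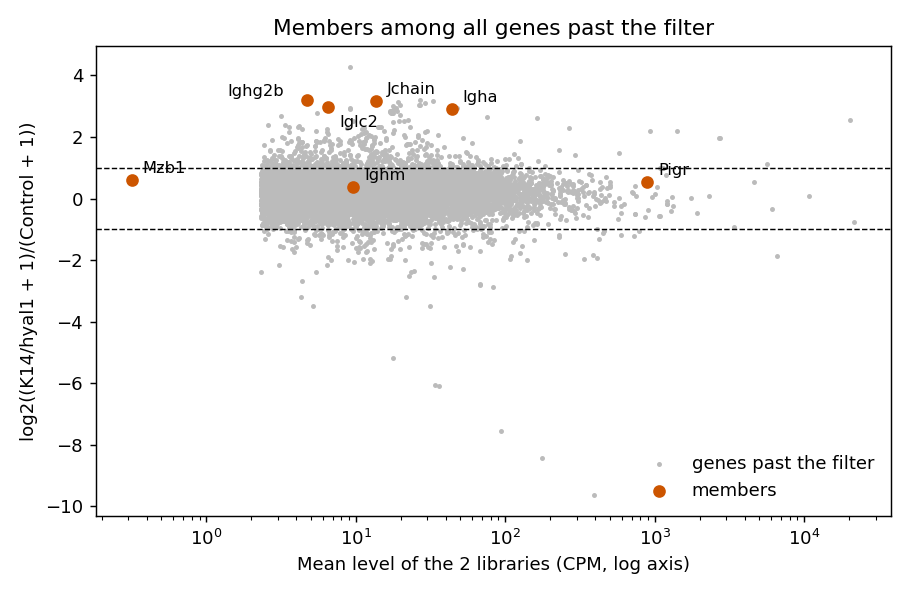
Log2 ratio against the mean level in CPM (log axis) of the 13563 genes past the filter (grey) and the 7 genes (orange), with dashed lines at 2-fold. Ighg2b, Jchain, Iglc2 and Igha lie between 2.92 and 3.21, while Ighm, Pigr and Mzb1 lie between 0.37 and 0.60.

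The makeup of antibody transcripts within each library does not depend on the scaling between libraries. Of the reads on 8 heavy chain constant genes, Igha took 44.5% in Control (41.8 to 47.3, of 1300 reads) and 76.9% in K14/hyal1 (75.3 to 78.4, of 2948 reads). Ighm took 38.9% (36.3 to 41.6) and 10.8% (9.69 to 11.96), and Ighd, the IgD chain of naive B cells, 15.2% (13.3 to 17.3) and 2.27% (1.77 to 2.88). Ighm and Ighd together took 54.2% of heavy chain reads in Control and 13.1% in K14/hyal1. With the highest transcript row of each gene in place of the sum, they took 48.3% and 7.81%, and Igha 50.8% and 81.6%, so whether IgA or IgM with IgD led in Control depends on how rows are counted. The IgG genes together took 1.23% in Control (0.705 to 1.99) and 10.04% in K14/hyal1 (8.98 to 11.2), and 271 of the 296 IgG reads in K14/hyal1 were on Ighg2b. The summed heavy chain level was 21.3 CPM in Control against 102 CPM in K14/hyal1, or 4.77-fold higher. Ighd itself was lower in K14/hyal1, with 3.24 CPM in Control against 2.31 CPM in K14/hyal1, for a ratio of 0.713 (0.532 to 0.944), and Ighe had 1 read in Control and 0 in K14/hyal1, below the floor in both.

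Light chain constant genes were also higher, and the lambda share of their reads was larger in K14/hyal1. They summed to 10.2 CPM in Control against 56.1 CPM in K14/hyal1, or 5.52-fold higher. Igkc, the only kappa constant gene, had 7.50 CPM in Control against 34.6 CPM in K14/hyal1, or 4.62-fold higher (4.13 to 5.17), and overlaps the annotated gene Gm30211 on the same strand. It took 73.8% of light chain constant reads in Control (70.1 to 77.2) and 61.7% in K14/hyal1 (59.3 to 64.1). Iglc2 took 6.92% (5.06 to 9.21) and 22.1% (20.1 to 24.2), while Iglc3 took 7.57% (5.61 to 9.94) and 10.5% (9.06 to 12.1) and Iglc1 11.8% (9.33 to 14.6) and 5.65% (4.58 to 6.89). The Iglc2 share was thus larger and the Iglc1 share smaller in K14/hyal1. The Iglc3 share was also larger there, with intervals that overlapped. How the added lambda share divides between Iglc2 and Iglc3 depends on how reads common to both were divided.

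**Figure D3:**
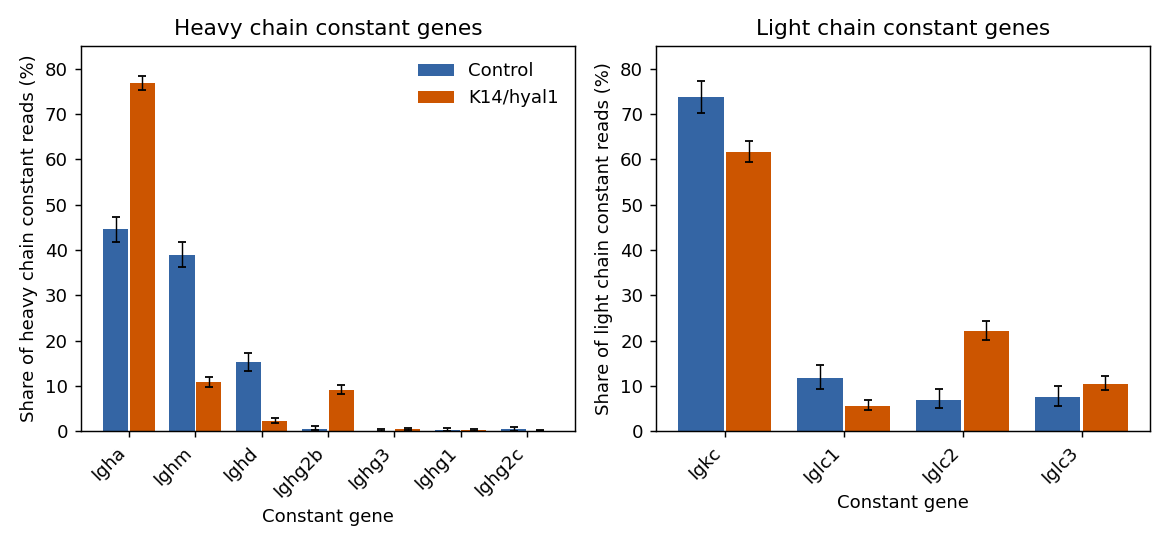
Share in percent of heavy chain constant reads (left) and light chain constant reads (right) on each gene in Control (blue) and K14/hyal1 (orange), with exact 95% binomial intervals, Ighe with at most 1 read left out. Igha goes from 44.5% to 76.9%, Ighm from 38.9% to 10.8%, and Iglc2 from 6.92% to 22.1%.

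Variable segment genes, which encode the antigen-binding part of the antibody chains, were higher as classes in K14/hyal1. The 74 heavy chain segments in the table summed to 2.93 CPM in Control (179 reads) against 24.7 CPM in K14/hyal1 (716 reads), for a ratio of 8.42 (7.14 to 9.98). The 67 kappa segments summed to 2.35 and 14.4 CPM, for a ratio of 6.10 (5.02 to 7.40), and the 3 lambda segments to 0.916 and 8.86 CPM, for a ratio of 9.66 (7.21 to 13.1). At least 1 read was found on 48 heavy chain segments in Control and on 62 in K14/hyal1, at unequal depth. By CPM, heavy chain segments were higher in K14/hyal1 for 58 and lower for 9 of 74, and kappa segments for 50 and 11 of 67. These counts used no floor and no interval. Since 1 read is worth 0.0164 CPM in Control and 0.0345 in K14/hyal1, some segments with fewer reads in K14/hyal1 count as higher. Examples are Ighv1-81 with 6 and 3 reads and Igkv4-57 with 5 and 3. Segments of 1 family are alike in sequence, so reads may have been split between them.

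A few segments carried much of each library's total. The following segments were named after their values were seen. Ighv9-3 had 8 reads in Control and 180 in K14/hyal1, or 4.47% (1.95 to 8.62) and 25.1% (22.0 to 28.5) of heavy chain segment reads. Ighv6-3 had 1 read in Control and 74 in K14/hyal1. In the other direction, Ighv1-78 had 31 reads in Control and 4 in K14/hyal1, 17.3% (12.1 to 23.7) and 0.559% (0.152 to 1.42) of the reads. Among kappa segments Igkv17-127 had 29 reads in Control and 1 in K14/hyal1, and Igkv12-46 had 1 and 50. Ranked by reads, 8 heavy chain segments made up at least 50% of reads in Control and 5 did in K14/hyal1, and Ighv9-3 was among them in both. For kappa segments these counts were 6 in Control and 7 in K14/hyal1, and for lambda segments 1 and 1.

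Of the lambda segments, Iglv2, which in mice is known to join mainly to Iglc2, had 9 reads in Control and 145 in K14/hyal1, 16.1% (7.62 to 28.3) and 56.4% (50.1 to 62.6) of lambda segment reads. Iglv1, known to join to Iglc1 and Iglc3, had 29 and 107 reads. Iglv3 went the other way, with 18 reads in Control and 5 in K14/hyal1, 32.1% (20.3 to 46.0) and 1.95% (0.635 to 4.48). The Iglv2 share of lambda segment reads and the Iglc2 share of light chain constant reads were thus both larger in K14/hyal1. Which segment was joined to which constant gene was not measured.

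**Figure D4:**
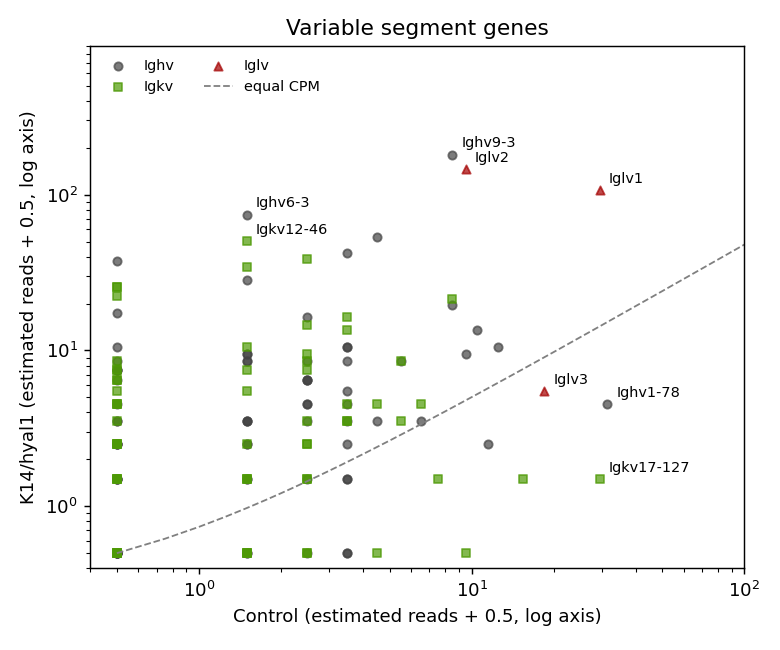
Estimated reads plus 0.5 of each variable segment gene in Control (horizontal) and K14/hyal1 (vertical), both on log axes, for heavy chain (circles), kappa (squares) and lambda (triangles) segments, with a dashed line at equal CPM. Most segments lie above the line, with Ighv9-3 at 8 and 180 reads, while Ighv1-78 at 31 and 4 reads and Igkv17-127 at 29 and 1 lie below it.

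Genes of plasma cell identity went in both directions between the libraries. Of 15 such genes in the table, 5 were higher and 10 lower in K14/hyal1, with a median log2 ratio of -0.13, against 0.05 over all symbols. The interval of the ratio lay above 1 for 4, Irf4, Sdc1, Tnfrsf17 and Tnfrsf13b. It lay below 1 for 4, Cd38, Cd27, Ell2 and Pim2, and spanned 1 for 7. Past the filter, 0 of 6 had a log2 ratio of at least 1 and 0 of 6 had one of at most -1. Irf4, a transcription factor of plasma cells also used by other immune cells, had 1.28 CPM in Control against 3.51 CPM in K14/hyal1, a log2 ratio of 0.99. The plain ratio of Irf4 was larger, 2.75 (2.03 to 3.75), because the log2 scale shrinks the differences of low genes. Sdc1, the syndecan that marks plasma cells and is also made by epithelium, had a log2 ratio of 0.61, and Cd38, an ectoenzyme of many cell types, had 102 and 56.9 CPM and the lowest log2 ratio, -0.83. Tnfrsf17, the survival receptor BCMA of plasma cells, named after its values were seen, had 1 read in Control and 5 in K14/hyal1. Its ratio was 10.5, with a wide interval of 1.18 to 498. Prdm1, Derl3, Fkbp11 and Eaf2 of the same list, also named after their values were seen, went the other way. Their ratios were 0.791, 0.632, 0.561 and 0.391, each with an interval that spanned 1.

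The endoplasmic reticulum machinery that antibody secretion uses, and which other secretory cells use as well, was measured for 27 genes, all past the filter. Of these, 24 were higher and 3 lower in K14/hyal1, with a median log2 ratio of 0.44 against 0.21 for all genes past the filter. A log2 ratio of 1 or -1 was reached by 0. After scaling to the median gene, 16 were higher and 11 lower. The signal peptidase subunit gene Spcs3 was highest, with 23.2 CPM in Control against 46.6 CPM in K14/hyal1, a log2 ratio of 0.98 and a plain ratio of 2.01 (1.87 to 2.17). The translocon-associated gene Ssr4 followed at 0.77, and Herpud1, a component of endoplasmic reticulum degradation, was lowest at -0.34. Xbp1, the factor that drives this programme in plasma cells, named after its values were seen, had 67.2 and 68.0 CPM.

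Of 11 B cell markers, 3 were higher and 8 lower, with a median log2 ratio of -0.17, and they summed to 24.4 CPM in Control against 20.1 CPM in K14/hyal1. The interval of the ratio lay below 1 for 4, Cd22, Pax5, Cr2 and Tnfrsf13c, spanned 1 for 7 and lay above 1 for 0. Among the 3 past the filter, Ms4a1 and Bank1 were higher and Cr2 lower, with a median log2 ratio of 0.16, a range of -0.37 to 0.19, and 0 at 2-fold. T cell markers were low in both, with sums of 3.21 and 4.93 CPM and 0 of 9 past the filter. Of these, 8 were higher and 1 lower in K14/hyal1, also on the median gene scale. The interval of the ratio lay above 1 for 3 and spanned 1 for 6. No B cell or T cell marker was at 0 reads in either library.

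Of 20 genes of IgA induction and plasma cell homing, 11 were higher and 7 lower, and Il6 and Il21 had 0 reads in both libraries, under the floor of 3 reads. On the median gene scale the counts were 10 and 8. The median log2 ratio was 0.06 against 0.05 for all symbols. Among the 9 past the filter, 7 were higher and 2 lower, with a median of 0.47 against 0.21 for all genes past the filter. A log2 ratio of 1 or -1 was reached by 0. Cxcl12, a chemokine that holds plasma cells in tissue, had 14.5 CPM in Control against 29.2 CPM in K14/hyal1, a log2 ratio of 0.96. The plain ratio of Cxcl12 was 2.004 (1.82 to 2.20). Ccl28, the epithelial chemokine that draws IgA plasma cells to the colon, had 43.0 and 77.4 CPM, a log2 ratio of 0.83. Its receptor gene Ccr10, named after its values were seen, went the other way, with 45 reads in Control and 13 in K14/hyal1, 0.736 and 0.448 CPM, for a ratio of 0.608 with an interval of 0.301 to 1.15. Tgfb1, the cytokine that directs the switch to IgA, was the lowest gene past the filter at -0.22.

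Antibody receptor genes were higher for 7 and lower for 3 of 10 measured. Fcgr3, an activating IgG receptor of macrophages and other myeloid cells, was the only gene of 5 past the filter at 2-fold, with 1.67 CPM in Control against 7.65 CPM in K14/hyal1, for a ratio of 4.58 (3.61 to 5.85). The inhibitory receptor Fcgr2b had 3.89 and 7.72 CPM, a log2 ratio of 0.83, and B4galt1, a galactosyltransferase, was lowest at -0.63. The macrophage markers given above were higher in the same library, and their part in the Fcgr3 value was not tested.

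Genes of signals known to act upstream of Pigr, cytokine receptors, adaptors and NF-kappaB subunits, gave 5 higher and 8 lower of 15. Il17a and Il17f had 0 reads in both libraries, and on the median gene scale the counts were 3 and 10. Among the 13 past the filter 0 reached 2-fold, and the median log2 ratio was -0.01, below the 0.21 of all genes past the filter, while that of Pigr was 0.52. Ltbr, the lymphotoxin beta receptor gene, was highest at 0.44, followed by the interleukin 17 receptor subunit Il17rc at 0.33, and the adaptor gene Ticam1 was lowest at -0.78, with 14.1 CPM in Control against 7.79 CPM in K14/hyal1.

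The nearest genes by level in both libraries, by Euclidean distance of log2 CPM over the 2 libraries and without predicted names, were the histone genes Hist1h1d and Hist1h3f for Igha, at distances of 0.64 and 0.66. They were Spon2 and Hist1h2ag for Jchain, at 0.61 and 0.79, and Flna and Prdx6 for Pigr, at 0.35 and 0.37. With 2 libraries, likeness of this kind means only like levels.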

How the data were processed

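Poly(A)-selected RNA was measured in 1 Control and 1 K14/hyal1 library; per the labels' protocols, a PureLink kit was used for extraction, and libraries were made with a stranded TruSeq mRNA kit and run on a HiSeq 2500. The submitters' processing notes name Partek and the build mm10; aligner, counting rule and use of strand: not given in the sources used here. As expression values, the authors deposited normalized counts for 72178 transcript rows, read as CPM because low values are multiples of 1 step per library, 0.0164 and 0.0345 CPM. After an offset of 0.0001 per row was subtracted, the rows of each symbol were added up. Among gene values of at most 300 reads, 81.6% and 82.9% lay within 0.1 of a whole number, so read numbers are estimates and were given no count test. A gene table was also deposited by the authors, with a least-squares mean CPM and a ratio, used as an alternative. A further gene list and a sheet on skin were not used here.

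Levels have exact Poisson intervals, shares and ratios Clopper-Pearson intervals. The members and lists were chosen with earlier results of these data known. The genes named were the 7 members, every other immunoglobulin constant gene in the table, the 2 highest and the 1 lowest gene past the filter in each pathway list, and the 2 genes nearest in level to Igha, Jchain and Pigr; exceptions are stated. Coordinates and coding sequences are from GENCODE M21 on mm10, identities from global alignment, and promoters from RefSeq on GRCm38.p6, which held 2 of 7 members. The steps were tested on simulated data. Alternatives were other pseudocounts, scalings, filters, thresholds, row sums and the gene table. Versions were Python 3.11.15, Biopython 1.88, matplotlib 3.10.9, scipy 1.17.1, pandas 2.3.3 and numpy 2.4.6.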

Additional observations from a re-analysis of the deposited data

How the results depend on the processing

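The count of 4 members at least 2-fold higher was between 3 and 5 under the 9 alternatives tried, and the count of 0 lower was 0 under each of them. With a pseudocount of 10 the log2 ratios were 2.18 for Igha, 0.94 for Ighg2b, 1.07 for Iglc2, 1.57 for Jchain and 0.075 for Mzb1, and with a pseudocount of 0.1 they were 5.46 for Ighg2b, 3.96 for Iglc2, 3.65 for Jchain and 2.20 for Mzb1. Scaling to the median gene gave 2.69 for Igha, 3.004 for Ighg2b, 0.15 for Ighm, 2.95 for Jchain and 0.29 for Pigr. TMM scaling gave 2.73 for Igha and 0.33 for Pigr, and totals without the 20 most abundant genes gave 2.75 and 0.36. With the highest transcript row in place of the sum, the Ighm log2 ratio was -0.15, from a row with a ratio of 0.882 and no interval. The IgA share of heavy chain reads was then 50.8% in Control and 81.6% in K14/hyal1. The IgM and IgD share was then 48.3% and 7.81%, an alternative chosen after seeing the data. The other member values and shares lay within their counting intervals, and Mzb1 has no row in the authors' gene table.

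Over all genes, 509 past the filter reached 2-fold upwards and 209 downwards. These were 126 and 76 with a pseudocount of 10, 301 and 346 on the median gene scale, 2401 and 663 at 1.5-fold, and 73 and 29 at 4-fold. There were 329 higher with TMM scaling and 268 higher with the filter at a mean of 10. The higher share of these genes was 70.9% as deposited but 46.5% on the median gene scale, 51.4% with TMM and 53.7% without the 20 most abundant genes. No paired analysis was possible because each group has 1 library and no test was run. Depth limits Mzb1, the IgG genes other than Ighg2b and single variable segments, which rest on few reads in Control.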
